A study of Rattus norvegicus with 14 samples.

Results

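The genes described here are 10 carriers, channels and enzymes through which the colonic epithelium moves sodium, chloride, bicarbonate and water: Scnn1a, Scnn1b, Scnn1g, Slc26a3, Slc9a3, Cftr, Slc12a2, Aqp8, Car1 and Car4. They were chosen by name, and every non-control probe carrying one of these names was used. All 10 were on the array, with 13 probes among 30367 probes and 26276 gene names. Colonocytes, the cells of the colonic lining, came from male Wistar rats that received a high-protein diet (HPD) or a normal one (NPD) over 15 days. Protein supplied 14% of the energy in the NPD and 55% in the HPD, and the diets were isocaloric, with milk protein in place of starch and sucrose in the HPD. The labels name no genetic change, and all rats had eaten the same standard chow before the trial. The cells of each colon, without its last segment, were detached with EDTA, and the RNA of each rat was hybridised to a 1-colour Agilent array of its own, giving 7 NPD and 7 HPD arrays. A further sample of each group that the authors removed as an outlier was not analysed here.

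The colon takes up sodium and chloride to draw water out of the lumen, and secretes chloride and bicarbonate when the contents need fluid or buffering. Electroneutral uptake couples the sodium/hydrogen exchanger Slc9a3 with the chloride/bicarbonate exchanger Slc26a3, and carbonic anhydrases supply the protons and bicarbonate that these carriers exchange. The epithelial sodium channel, built from the subunits Scnn1a, Scnn1b and Scnn1g and raised by aldosterone, works mainly in the distal part, while secretion uses Slc12a2 to load the cell with chloride and Cftr to release it.

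Levels are given as log2 of the background-subtracted signal of a probe over the median of its array, so a difference of 1 is a doubling of signal. Levels of different probes were not set against each other, because probes bind with different strength. The 13 probes were well above background on all 14 arrays. The array medians of the signal ran from 114 to 179 on the NPD arrays and from 89.7 to 129 on the HPD arrays, and arrays correlated with r of 0.96 to 0.99. There were 2 slides with a scan run each, with 4 NPD and 3 HPD arrays on slide 1 and 3 NPD and 4 HPD arrays on slide 2. The 8 general epithelial markers, among them Epcam, Cdh1, Krt8 and Cdx2, were well above background on all arrays. Their summed level was 12.84 to 13.17 in NPD and 12.91 to 13.47 in HPD rats. The 7 immune markers summed to 4.07 to 5.66 in NPD and 4.01 to 4.50 in HPD rats, with Cd3e above background on 3 NPD and 0 HPD arrays. Sums add linear signals, so the brightest marker weighs most, on average Lyz2 (NPD mean 4.11) among these. The 4 red blood cell markers summed to 5.19 to 5.94 in NPD and 5.53 to 7.25 in HPD rats. In such bulk RNA, fewer cells of a type and less RNA per cell cannot be told apart.

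With limma and Benjamini-Hochberg adjustment over all probes, 0 of the 10 genes had q below 0.1, while 0.056% of all probes did. By the brightest probe of each gene, 0 of 10 had an unadjusted limma p below 0.05, against 11.4% of all probes. The exact permutation test put 1 of 10, Slc26a3, below 0.05, against 11.7% of all probes. No gene had separate ranges in the diets, while 0.274% of all probes did. Slc26a3, Slc9a3, Cftr, Aqp8, Car1 and Car4 had the higher mean in HPD, and the 3 sodium channel subunits and Slc12a2 the lower mean. That makes 6 of 10 higher, where 64.2% of all probes were higher in HPD. The median log2 fold change was 0.09 over the 10 genes and 0.11 over all probes, so a gene at about 0.11 lay at the middle of all probes. By the brightest probes the 95% interval was widest for Scnn1g, from −1.11 to 0.74, and narrowest for Slc12a2, from −0.45 to 0.15.

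**Figure D1:**
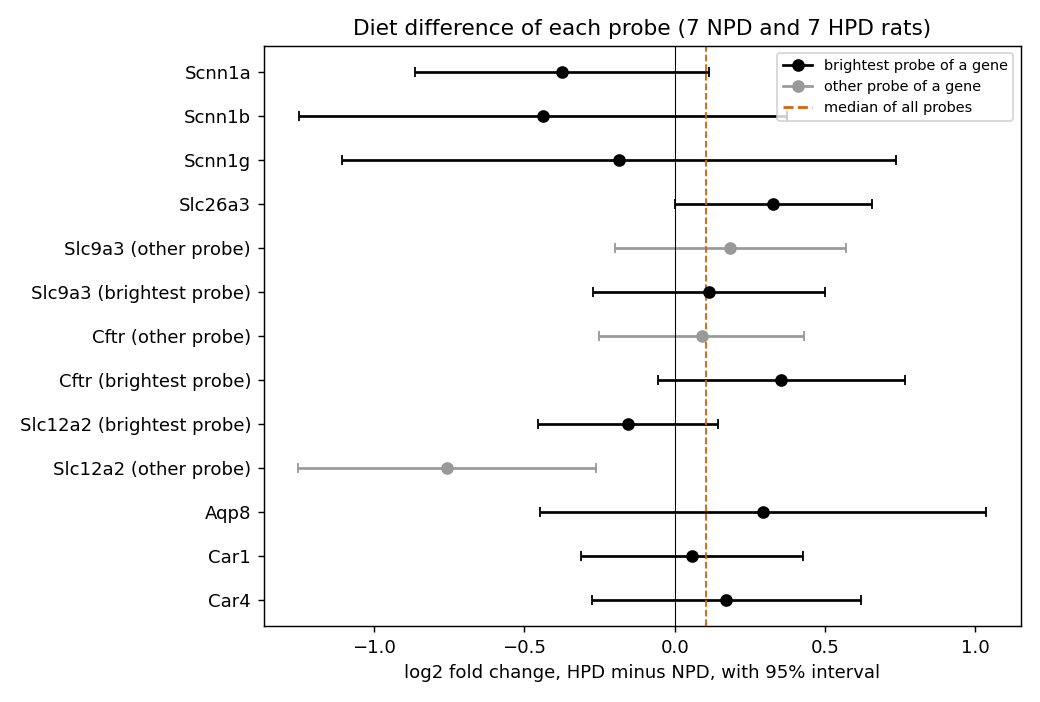
Log2 fold change (HPD minus NPD, x axis) of each of the 13 probes with its 95% interval from limma, 7 rats in each group; black marks the brightest probe of a gene, grey the other probe, and the dashed line the median of all probes at 0.11. The intervals of the brightest probes include 0, and the other probe of Slc12a2 lies at −0.76 with an interval from −1.25 to −0.26.

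The epithelial sodium channel is the rate-limiting entry step of aldosterone-driven sodium uptake, and its subunits assemble into 1 pore. The probe of Scnn1a lies on chromosome 4 (rn4, chr4:161468845-161468904), and those of Scnn1g (chr1:180589223-180589282) and Scnn1b (chr1:180747314-180747373) lie near each other on chromosome 1. Scnn1a had levels of 3.29, 3.83 and 4.24 (lowest, median and highest) in NPD rats and 2.64, 3.40 and 4.36 in HPD rats. The ranges overlapped, with 6 of 7 HPD rats under the mean of the NPD rats. Scnn1a differed by −0.37 on the log2 scale (95% interval −0.86 to 0.11, limma q = 0.501, exact permutation p = 0.148).

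Scnn1b, the β subunit, had levels of 0.85, 1.86 and 2.84 in NPD rats and 0.12, 1.57 and 2.93 in HPD rats. The HPD rats held both the highest and the lowest value, and 5 of 7 were below the NPD mean. Its log2 fold change was −0.44 (q = 0.579, exact permutation p = 0.310). Slide 2 arrays were lower than slide 1 arrays by 1.06 for Scnn1b, and with slide in the limma model the log2 fold change was −0.29 (q = 0.619).

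Scnn1g, the γ subunit, had levels of 0.22, 0.94 and 1.17 in NPD rats and −1.23, 0.76 and 2.54 in HPD rats. The NPD rats lay close together, whereas 3 HPD rats were above and 3 below every NPD rat. On average Scnn1g differed by −0.19 (95% interval −1.11 to 0.74, q = 0.834), and without HPD rat 7 it was 0.13. The SD among rats was 0.31 in NPD and 1.22 in HPD, a ratio of 3.90, and 0.419% of the 17432 probes above background on all arrays had a ratio at least as high (median ratio 1.13). This ratio was looked at after its values were seen. The probe sits in 10 spots on each array, which differed by an SD of 0.13, and 7 of its spots were left out as outliers.

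HPD rat 1 had the highest and HPD rat 7 the lowest HPD level of all 3 subunits. With HPD rat 7 left out, Scnn1a differed by −0.25 (q = 0.753). The level of Scnn1g moved with the brightness of the array: after removal of diet-and-slide means its correlation with the array median signal was r = 0.82 over 14 arrays, against 0.53 for Scnn1a and 0.63 for Scnn1b. Leaving out HPD rat 7 gave 0.70, 0.28 and 0.40. The part of array brightness in these values was not tested.

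**Figure D2:**
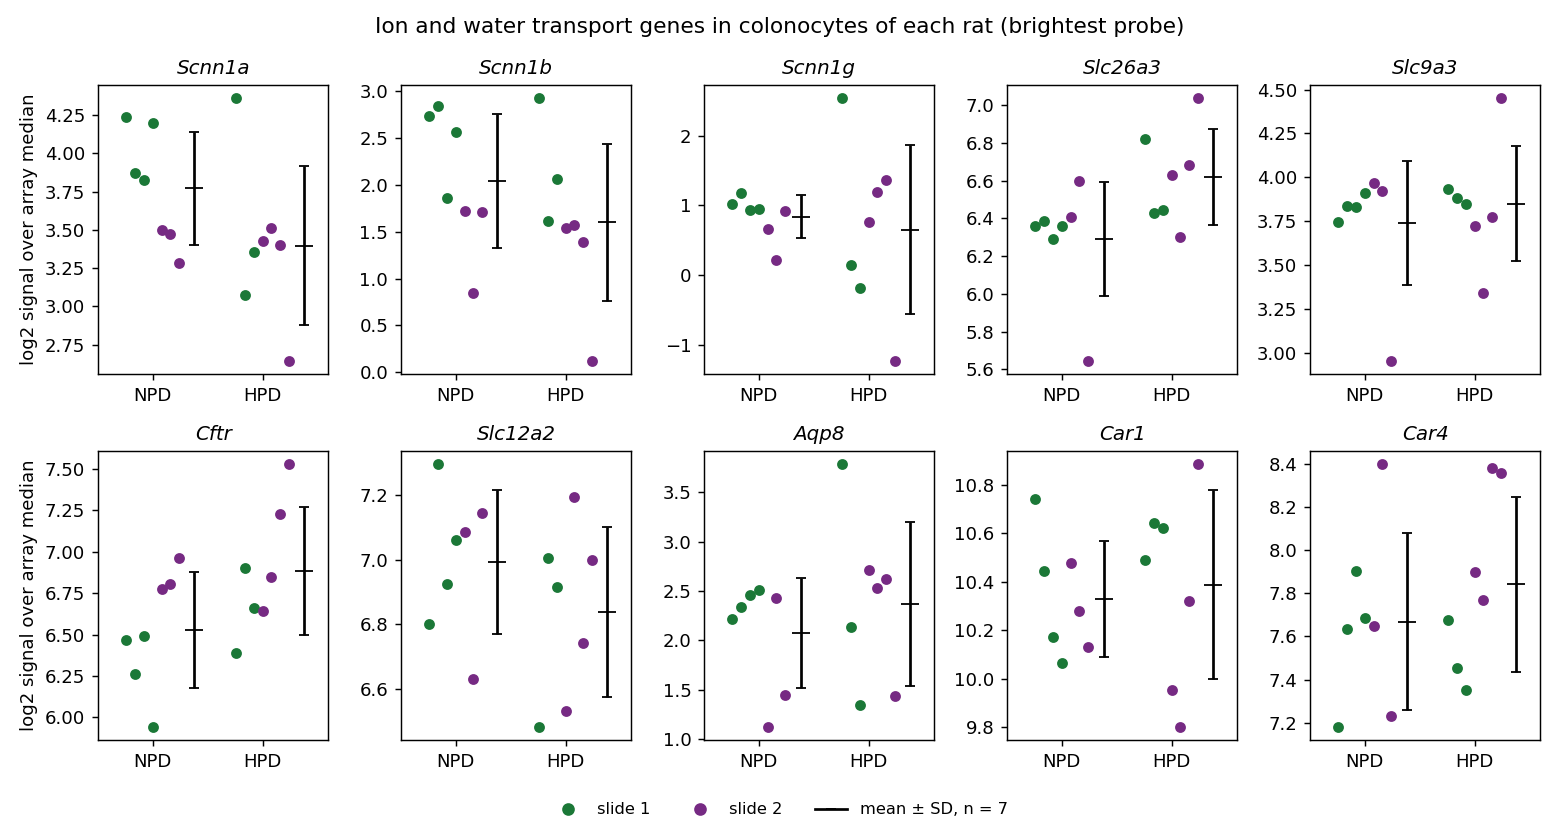
Log2 signal over the array median (y axis) of the brightest probe of each gene in each NPD and HPD rat; points are rats coloured by slide, and black bars are the mean ± SD of 7 rats. The diets overlap in every panel, and the HPD rats of Scnn1g spread from −1.23 to 2.54 around NPD rats between 0.22 and 1.17.

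Slc26a3, the apical chloride/bicarbonate exchanger whose loss causes congenital chloride diarrhoea, had the lowest p among the 10 genes by their brightest probes. The other probe of Slc12a2, described below, had a lower p. The probe of Slc26a3 lies on chromosome 6 (rn4, chr6:49343402-49343461) and starts at base 2380 of the transcript. It is shown because the lowest p of the brightest probes rests on it, in a single spot per array, with nothing marked in capitals.
Slc26a3 probe: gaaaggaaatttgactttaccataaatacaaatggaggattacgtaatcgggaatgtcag
The levels were 5.64, 6.36 and 6.60 in NPD rats and 6.30, 6.63 and 7.04 in HPD rats. All 7 HPD rats were above the NPD mean and 4 were above every NPD rat. Slc26a3 was higher on average by 0.33 (95% interval −0.00030 to 0.66, limma p = 0.0502, q = 0.438, exact permutation p = 0.0291). Within slides the permutation p was 0.0384, with differences of 0.22 on slide 1 and 0.45 on slide 2. NPD rat 7, at 5.64, was well under the next NPD rat at 6.29. Without HPD rat 7 the difference was 0.26 (exact permutation p = 0.0664). Leaving out NPD rat 7, the lowest NPD rat, also makes the difference smaller. Over the 32 settings of processing, with each array left out among them, it ran from 0.18 to 0.38.

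Slc9a3, the apical exchanger that takes up sodium for protons, has 2 probes on chromosome 1. Its brightest probe, starting at base 4958, had levels of 2.95, 3.84 and 3.96 in NPD rats and 3.34, 3.85 and 4.45 in HPD rats. The ranges overlapped in part, and 5 of 7 HPD rats were above the NPD mean. The log2 fold change was 0.11 (95% interval −0.27 to 0.50, q = 0.760), and without NPD rat 7 it was −0.02. The array file places only 29 of the 60 bases of this probe on the genome. The other probe, starting at base 2495 (rn4, chr1:29934709-29934768), gave 0.19 (q = 0.615), and the difference between the probes changed by 0.07 with diet (exact permutation p = 0.656). Across rats the deviations of both probes correlated with r = 0.89.

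The secretory genes Cftr and Slc12a2 had opposite signs by their brightest probes. Cftr, the cyclic AMP-gated chloride channel of the apical membrane, had levels of 5.94, 6.49 and 6.96 in NPD rats and 6.39, 6.85 and 7.53 in HPD rats at the probe starting at base 6185 (rn4, chr4:44041769-44041828). The ranges overlapped, with 6 of 7 HPD rats above the NPD mean and 2 above every NPD rat. For Cftr the log2 fold change was 0.36 (95% interval −0.06 to 0.77, q = 0.468, exact permutation p = 0.0979). At the other probe, starting at base 4306 (rn4, chr4:44038828-44038887), it was 0.09 (q = 0.783), and the difference between the probes changed by −0.27 with diet (exact permutation p = 0.151).

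Slc12a2, the basolateral sodium-potassium-chloride cotransporter, gave unlike differences at its 2 probes. The brightest, with 10 spots per array and starting at base 6070 (rn4, chr18:53741021-53741080), had levels of 6.63, 7.06 and 7.30 in NPD rats and 6.48, 6.92 and 7.19 in HPD rats. The diets overlapped there, and the log2 fold change was −0.15 (95% interval −0.45 to 0.15, q = 0.594). The other probe starts at base 3541 (rn4, chr18:53736914-53736973), upstream of the first, and has 1 spot per array. It is shown because the larger difference rests on it, with nothing marked in capitals.
Slc12a2 upstream probe: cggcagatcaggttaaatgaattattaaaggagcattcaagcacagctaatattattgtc
Its levels were 4.23, 4.66 and 5.29 in NPD rats and 3.23, 4.17 and 4.53 in HPD rats. All 7 HPD rats were below the NPD mean and 4 were below every NPD rat. The log2 fold change of −0.76 (95% interval −1.25 to −0.26) had a limma p of 0.00539, a q of 0.417 and an exact permutation p of 0.00932. The upstream-minus-downstream difference changed by −0.60 with the HPD (exact permutation p = 0.0181, 0.0542 after adjustment over the 3 genes with 2 probes). Over 2768 transcripts with probes at different starts, the same upstream-minus-downstream difference had a median of −0.04, and 4.95% of them were at least as low as Slc12a2. This comparison of probes was chosen after the values were seen.

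Aqp8, a water channel of the surface colonocytes, has a probe on chromosome 1 (rn4, chr1:182335905-182335964). Its levels were 1.12, 2.34 and 2.51 in NPD rats and 1.35, 2.53 and 3.79 in HPD rats. Of the HPD rats 4 were above every NPD rat and the other HPD rats were mixed with them. The log2 fold change was 0.29 with a wide interval from −0.45 to 1.04 (q = 0.678, exact permutation p = 0.427). It was 0.04 on slide 1 and 0.66 on slide 2.

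Car1, the abundant cytosolic carbonic anhydrase of colonocytes (rn4, chr2:88210305-88210364), had levels of 10.06, 10.28 and 10.74 in NPD rats and 9.80, 10.49 and 10.89 in HPD rats. The HPD rats lay on both sides of the NPD rats. The log2 fold change was 0.06 (95% interval −0.31 to 0.43, q = 0.872). Red blood cells also carry Car1. Car4, the membrane-bound form at the apical surface (rn4, chr10:73237515-73237574), had levels of 7.18, 7.65 and 8.40 in NPD rats and 7.35, 7.77 and 8.38 in HPD rats, with near-identical ranges. Its log2 fold change was 0.17 (95% interval −0.28 to 0.62, q = 0.686).

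Functional partners were compared within each rat, which cancels the centring of the array. The difference Cftr minus Slc12a2 was higher in HPD by 0.51, with 7 of 7 HPD rats above the NPD mean (exact permutation p = 0.0396). The difference Slc26a3 minus Slc9a3 was higher in HPD by 0.22, with 6 of 7 above (p = 0.0268 by the exact permutation test). Over the 6 pairs tested the adjusted p was 0.119 for both. Among the sodium channel subunits the changes were −0.06 for Scnn1b minus Scnn1a, 0.19 for Scnn1g minus Scnn1a and 0.25 for Scnn1g minus Scnn1b. Car4 minus Car1 changed by 0.11. The exact permutation p of these 4 pairs lay between 0.474 and 0.800.

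A wider list held 45 further genes of ion and water handling, of which 44 were on the array by name. By the brightest probe of each gene and at q below 0.1, 0 of 44 were called, against 0.056% of all probes, and 4 of 44 had an unadjusted limma p below 0.05, a share under the 11.4% of all probes. The median log2 fold change was 0.10, with 26 higher and 18 lower in HPD, a share of higher values under the 64.2% of all probes. The 4 genes are named by their p and were not set apart from all probes by these counts. The hormone guanylin, Guca2a, which slows sodium uptake and stimulates secretion, had levels of 11.37, 11.53 and 12.03 in NPD rats and 11.69, 11.81 and 12.39 in HPD rats. Each of the 7 HPD rats was above the NPD mean, and the log2 fold change was 0.31 (exact permutation p = 0.0280, limma q = 0.425). Its receptor Gucy2c had levels of 4.92, 5.38 and 5.76 in NPD rats and 4.30, 4.63 and 5.60 in HPD rats. For Gucy2c 4 HPD rats were below every NPD rat, and the log2 fold change was −0.53 (exact permutation p = 0.0379, limma q = 0.417). The other probe of Gucy2c gave −0.35 (exact permutation p = 0.186). The sulfate transporter Slc26a2 differed by 0.35 (exact permutation p = 0.0181) with 7 of 7 HPD rats above the NPD mean (limma q = 0.417). The basolateral anion exchanger Slc4a2 gave opposite values at its 2 probes. Its brightest probe differed by 0.34 (exact permutation p = 0.0338, within slides 0.0359, limma q = 0.425), with 6 of 7 HPD rats above the NPD mean. Its other probe differed by −0.36 (exact permutation p = 0.114, within slides 0.0286, limma q = 0.476), with 6 of 7 below and 3 below every NPD rat. Slc4a2 thus had no single direction. Without HPD rat 7 the exact permutation p was 0.0548 for Guca2a, 0.0717 for Gucy2c, 0.0379 for Slc26a2 and 0.0664 for the brightest probe of Slc4a2.

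In the other role groups no gene had a limma p below 0.05 by its brightest probe. Of 8 regulators of the sodium channel and aldosterone action, 4 were higher and 4 lower. The ubiquitin ligase Nedd4l, which removes the channel from the membrane, differed by −0.20 (q = 0.504; 0.03 at its other probe) and the mineralocorticoid receptor Nr3c2 by 0.19 (q = 0.517). Among the sodium pump genes the subunit Atp1b1 differed by 0.24. Among 3 chloride channels Clcn2 differed by −0.18 and Clca4 by 0.20. By their brightest probes the 5 potassium channel and pump genes had positive values, from 0.03 to 0.47, where 64.2% of all probes were positive. Kcnq1 was at 0.25 there and at −0.16 at its other probe, where 5 of 7 HPD rats lay under the mean of the NPD rats, and Kcnn4 was at 0.14 and 0.01. Of 5 other water channels Aqp1 differed by −0.79 and Aqp7 by 0.48, both with wide spread among rats (q = 0.508 and 0.515). Aqp4 was at −0.25 by its brightest probe and at 0.34 (exact permutation p = 0.0251, limma q = 0.417) and 0.23 by its other probes. The scaffold protein Slc9a3r2 differed by 0.40 and the carbonic anhydrase Car13 by 0.29, with 0.03 at its other probe.

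Another pair of genes was picked after its values were seen, because HPD rat 7 set both apart. Atp12a, the colonic proton-potassium pump, and Fxyd4, a small partner protein of the sodium pump, belong like the sodium channel to the aldosterone-responsive distal colon. Atp12a had levels of 6.55, 6.68 and 7.48 in NPD rats, while 6 HPD rats ranged from 6.88 to 8.50 and HPD rat 7 was at 3.64. Fxyd4 had levels of 7.35, 8.63 and 9.02 in NPD rats, while 6 HPD rats ranged from 8.63 to 9.34 and HPD rat 7 was at 4.83. HPD rat 7 was thus lower than the lowest other rat by over 2 log2 units in both genes. That held for 7 of 17432 probes in HPD rat 7, and for 0 to 7 probes in each of the other rats. The same rat was also the lowest of all 14 for 3 of the 5 Hox genes that mark the distal segment. Hoxb13 was at 7.24 in it (lowest NPD rat 7.83), Hoxd13 at 1.35 (2.35) and Hoxd10 at 1.03 (2.54), while Hoxa13 and Hoxd12 were lowest in other rats. The sum of the 5 genes was lowest in an NPD rat, at 8.49, against at least 8.77 in the HPD rats. The array of HPD rat 7 had the lowest median signal of all 14, 89.7, and the fewest probes well above background, 18839. The parts of colon segment and array brightness in the values of HPD rat 7 were not tested.

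With all rats, Atp12a differed by 0.47 (q = 0.698, exact permutation p = 0.565) and Fxyd4 by 0.08 (q = 0.953, exact permutation p = 0.934). Without HPD rat 7 the differences were 1.09 for Atp12a, with 5 of the other 6 HPD rats above every NPD rat, and 0.68 for Fxyd4, with 4 of 6 above. These values are a description and carry no test, since the rat was set aside for its levels of these same genes. Of the sodium channel subunits, lowest among HPD rats in the same rat, Scnn1a and Scnn1b each had 1 HPD rat above every NPD rat and Scnn1g had 3.

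**Figure D3:**
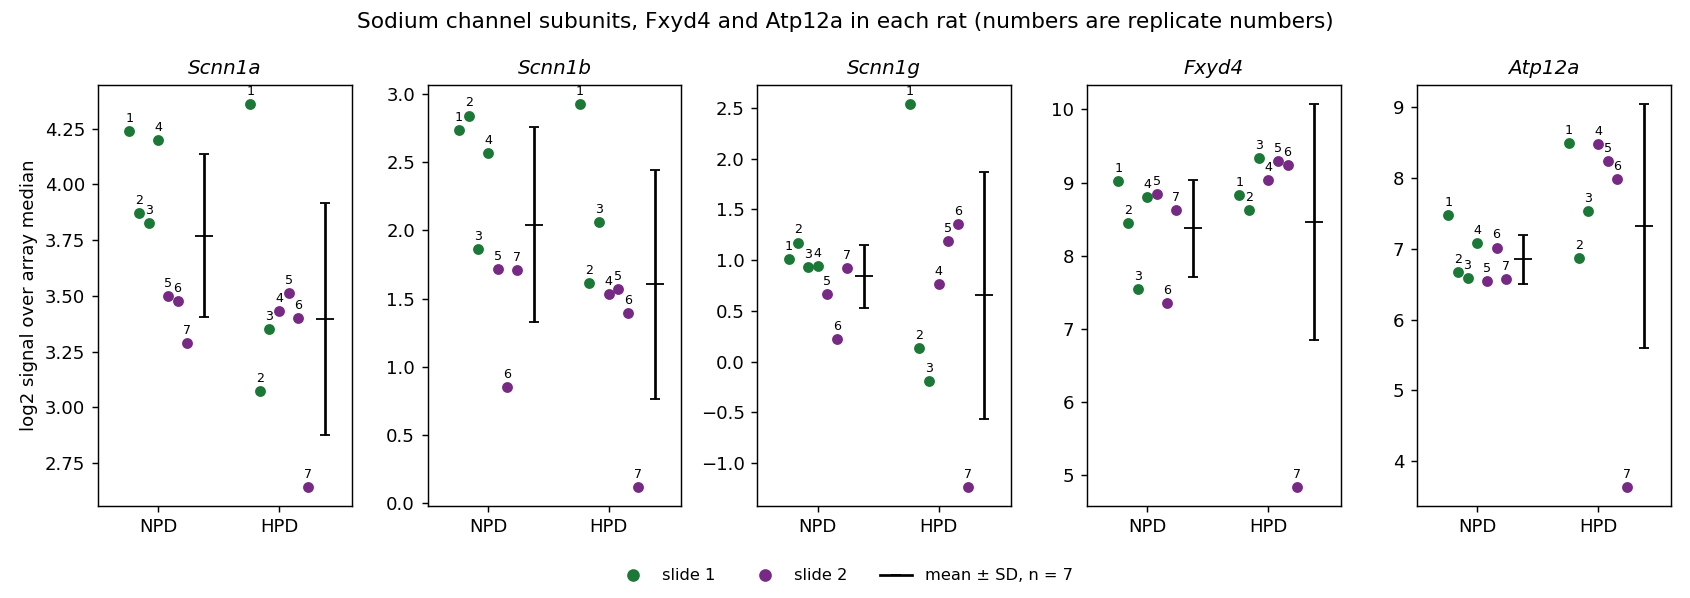
Log2 signal over the array median (y axis) of the 3 sodium channel subunits, Fxyd4 and Atp12a in each rat, numbered by replicate and coloured by slide, with the mean ± SD of 7 rats. HPD rat 7 is the lowest HPD rat in all 5 panels, at 4.83 for Fxyd4 and 3.64 for Atp12a, while the other HPD rats of Atp12a lie between 6.88 and 8.50.

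Rat-to-rat variation was described after subtraction of the mean of each diet on each slide, over 14 rats that share slides and array brightness. Of the 45 pairs of these genes Slc26a3 and Slc9a3 moved together most closely, with r = 0.92 (Spearman rho 0.81, and r = 0.81 without the 2 rats farthest out). Of 17431 other probes above background, 2 correlated with Slc26a3 at least that well, Slc9a3 itself among them. Car4 followed them, with r of 0.74 to Slc26a3 and 0.68 to Slc9a3, and so did Guca2a, with 0.84 and 0.85.

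The sodium channel subunits formed another block, with r of 0.86 between Scnn1a and Scnn1g, 0.83 between Scnn1b and Scnn1g and 0.79 between Scnn1a and Scnn1b. Without HPD rat 7 these were 0.79, 0.70 and 0.68. Of 17431 other probes, 52 had an r with Scnn1a at least as high as Scnn1g, 207 as Scnn1b and 311 as Aqp8. For Scnn1b, 146 had one at least as high as Scnn1g. For Scnn1g, 16 had one at least as high as Scnn1a and 60 as Scnn1b. Aqp8 joined the block through Scnn1g (r = 0.77) and Scnn1a (r = 0.76), while its r with Scnn1b was 0.42. Without HPD rat 7 these were 0.71, 0.69 and 0.19. Without the 2 rats farthest out in the subunit they were 0.50, 0.47 and 0.29. The aldosterone-induced kinase Sgk1 had r = 0.87 with Scnn1a, Atp12a had 0.78 with Scnn1a and 0.77 with Scnn1g, and Fxyd4 had 0.80 with Scnn1b. Leaving out HPD rat 7 gave 0.84, 0.90, 0.55 and 0.66, in the same order.

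Cftr ran against the sodium channel, with r of −0.71 to Scnn1a and −0.67 to Scnn1b. These became −0.57 and −0.46 without HPD rat 7, and the r of −0.56 between Cftr and Scnn1g became −0.26. Cftr moved with Car1 (r = 0.72, and 0.52 without HPD rat 7) and Car13 (r = 0.85, and 0.79). The r with Car1 was not unusual for Cftr, as 9.68% of 17431 other probes had one at least that high. The bicarbonate cotransporter Slc4a4 ran against Scnn1b (r = −0.87, and −0.80 without HPD rat 7). Slc12a2 was not closely tied to Cftr (r = 0.26), and its nearest genes on the wider list were the potassium channel genes Kcnn4 (r = 0.71) and Kcne3 (r = 0.64).

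**Figure D4:**
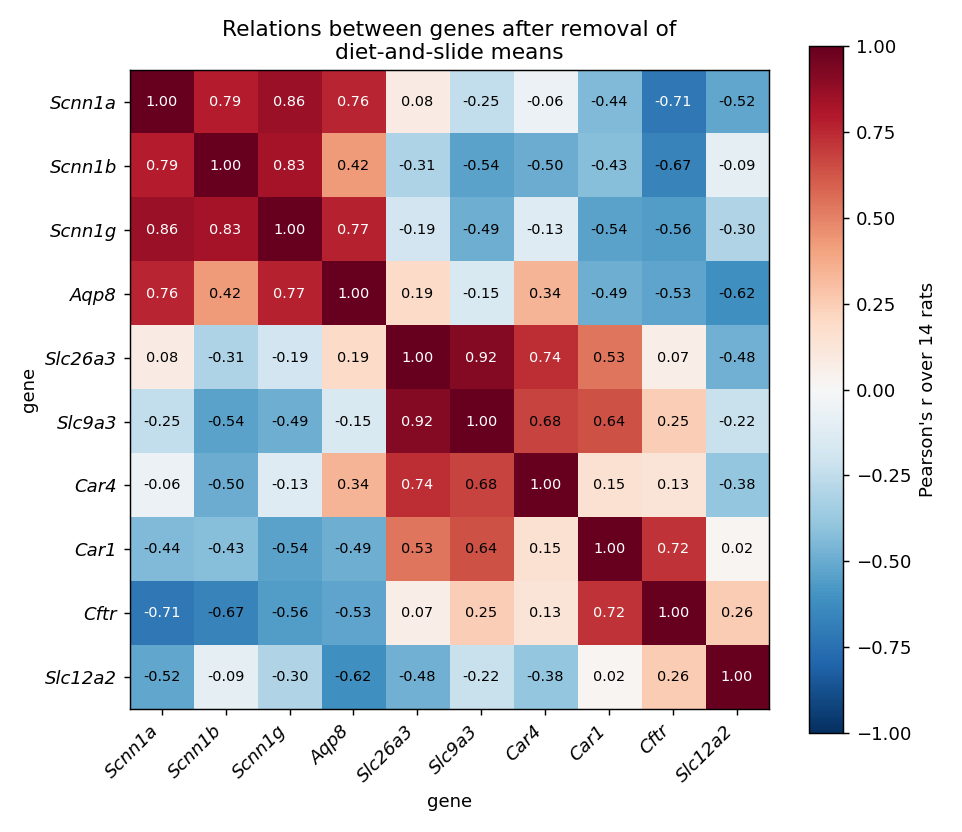
Pearson's r between the brightest probes of the 10 genes over 14 rats after removal of diet-and-slide means; red is positive and blue negative. Scnn1a, Scnn1b, Scnn1g and Aqp8 form a positive block with r of 0.42 to 0.86, Slc26a3, Slc9a3 and Car4 another with 0.68 to 0.92, and Cftr is negative to the first block. Without HPD rat 7 the lowest r of the first block is 0.19, and Cftr against Scnn1g is −0.26.

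Several marker sums moved with the same genes. As sums of linear signals they follow their brightest genes, such as Chgb (NPD mean 8.85) in the enteroendocrine sum. In the stem and cycling sum Cdk1 and Pcna had NPD means of 5.91 and 5.69, but Lgr5 and Olfm4 −2.08 and −2.56, so the stem markers barely enter. The enteroendocrine sum of 6 genes (9.20 to 10.25 in NPD and 8.84 to 10.45 in HPD rats) had r of −0.69, −0.82 and −0.75 with Scnn1a, Scnn1b and Scnn1g. The stem and cycling sum of 7 genes (6.94 to 7.62 and 6.76 to 7.76) had r = −0.75 with Scnn1b and 0.65 with Cftr. The surface colonocyte sum of 6 genes (10.50 to 11.07 and 10.51 to 11.21) had r = 0.78 with Car4 and 0.69 with Slc26a3. The goblet sum of 8 genes (12.92 to 13.36 and 12.62 to 13.78) had r = 0.73 with Aqp8, and the sum of 5 distal Hox genes (8.49 to 9.42 and 8.77 to 9.74) had r = −0.71 with Car1 and 0.51 with Scnn1g. These last values were −0.29 and −0.08 without HPD rat 7. Array brightness had r of −0.71 with Car1, −0.72 with Slc9a3 and −0.59 with Slc26a3. The part of cell makeup, segment and brightness in these relations was not tested.

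**Figure D5:**
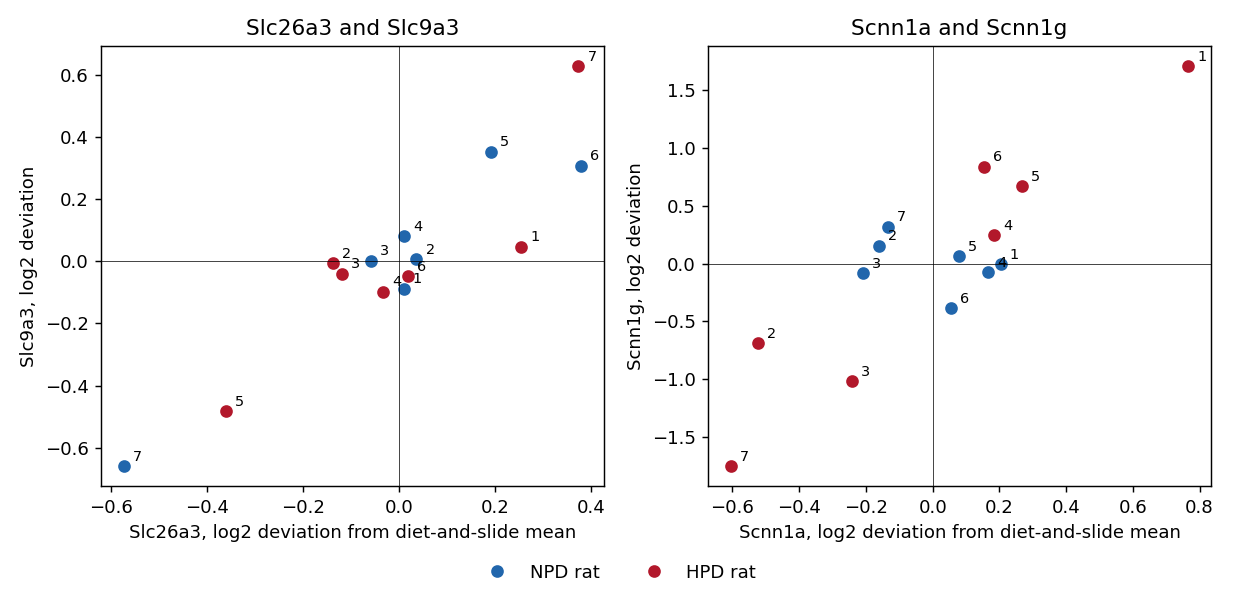
Log2 deviations of each rat from its diet-and-slide mean, Slc26a3 against Slc9a3 on the left and Scnn1a against Scnn1g on the right; blue points are NPD and red points HPD rats, numbered by replicate. On the left NPD rat 7 and HPD rat 5 are lowest and HPD rat 7 is highest in Slc9a3, and on the right the HPD rats run from rat 7 at the bottom to rat 1 at the top.

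For the 3 members with the lowest limma p by their brightest probes, the 3 genes with the most similar deviations were listed among 17432 probes. For Slc26a3 they were the autophagy receptor Optn (r = 0.94), Slc9a3 (r = 0.92) and RGD1562952 (r = 0.92). For Scnn1a they were Tle4 (r = 0.94), Cdc42ep3 (r = 0.93) and Rffl (r = 0.92). For Cftr they were Bex4 (r = 0.97) and the unnamed probes A_64_P120114 (r = 0.98) and A_64_P033284 (r = 0.97).

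RefSeq promoters (build GRCr8) were held for 8 of the 10 genes, Scnn1a and Car1 not among them. The short motif AGAACA is only a part of the steroid receptor element, and the whole element was not searched for. In the 250 bases before the start, AGAACA was found on either strand in 0 of 8, against 17.5% of 33469 promoters. The caudal homeobox motif TTTATNG was found in 1 of 8, against 10.1%. The match lay 29 bases before the start of Aqp8 (chr1:187424193-187424442). That stretch is shown with the match in capitals, as the only match in the 8 promoters. A count of 1 of 8 is near the share of all promoters.
Aqp8 promoter: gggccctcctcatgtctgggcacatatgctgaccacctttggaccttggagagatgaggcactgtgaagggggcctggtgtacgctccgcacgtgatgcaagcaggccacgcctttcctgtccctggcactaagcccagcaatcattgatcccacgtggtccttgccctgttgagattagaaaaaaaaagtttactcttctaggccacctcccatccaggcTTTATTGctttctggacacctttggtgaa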

How the data were processed

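Colonocyte RNA of 7 NPD and 7 HPD rats was measured on 1-colour Agilent arrays, and groups and replicate numbers were taken from the sample labels. The authors deposited scanner output of Feature Extraction 10.7.3.1 with the intensity of each spot on a linear scale, and normalized log2 values per gene name. The number of columns of other samples was 0. Per the methods of the paper, values were log2-transformed, centred by array and averaged over replicate spots, and fitted with limma.

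Here control and outlier-marked spots were left out, log2 of the background-subtracted signal was averaged per probe and centred on the array median. Files were read with the data.table package (version 1.17.8), and diet was the fixed effect in lmFit and eBayes of limma 3.58.1 (R 4.3.3), with Benjamini-Hochberg adjustment over 30367 probes and a threshold of q below 0.1. The brightest probe stood for a gene. Exact two-sided permutation tests used 3432 splits, with 0.000583 as the smallest p, and 1225 regroupings within slides. The number of arrays limits the precision, and the fit was tested on simulated data.

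The members and lists were chosen with earlier results of these data known. The result of 1 listed gene is not reported here. Named were the members, listed transport genes with a limma p below 0.05 or among the lowest 2 p of a role group, and for the 3 members of lowest p the 3 most similar genes. Alternatives were median or mean pixel brightness, array means or 75th percentiles for centring, quantile, cyclic loess, normexp (offset 50), a filter on dim probes, slide and replicate blocks, a trend, the deposited log2 values, other probe rules, a q-value below 0.05, the methods' t-test and leaving out each array. Chosen after seeing the data were values and correlations without HPD rat 7 and the ratio of SDs. Probe positions are those of the array file (rn4), for which exon and UTR annotation was not used here.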

Additional observations from a re-analysis of the deposited data

Results flagged for a closer look

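Among 32 groups of 7 rats, 5 had a lowest or highest rat unusually far from the next one. The rule flags about 1 in 20 groups by chance, but Fxyd4 and Atp12a were picked because HPD rat 7 set them apart. The count of 5 therefore cannot be set against that rate, and all 5 came from NPD rat 7 or HPD rat 7. NPD rat 7 was lowest for Slc26a3 at 5.64 (next rat 6.29) and for Slc9a3 at 2.95 (next rat 3.74). HPD rat 7 was lowest for Fxyd4 at 4.83 (next 8.63) and for Atp12a at 3.64 (next 6.88), and highest for Slc26a2 at 3.53 (next 3.15).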

How the results depend on the processing

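In 32 settings per gene, 0 of the 10 genes were called, with q of at least 0.130, and Scnn1a, Scnn1b, Slc26a3, Cftr, Slc12a2 and Aqp8 kept their sign. Car1 turned to −0.0553 with the mean and −0.0561 with the median pixel signal, −0.0155 with mean centring, −0.11 with quantile and with cyclic loess, −0.10 with normexp and with the deposited table, and, with slide as a block, −0.0072 (cyclic loess), −0.0481 (normexp) and −0.03 (deposited table). Car4 turned to −0.0146 under normexp and −0.0038 under the deposited table, both with slide as a block, and Slc9a3 to −0.0209 under normexp. Leaving out 1 array gave −0.025 to 0.16 for Car1, −0.0175 to 0.20 for Slc9a3 (lowest without NPD rat 7) and −0.50 to 0.13 for Scnn1g (highest without HPD rat 7). Of the wider list, normexp called 2 genes (Nedd4l and Gucy2c), normexp with slide 6 (among them Atp1b3, Clcn2 and Aqp7) and the deposited table with slide 1 (Gucy2c), where 5142, 8479 and 2767 of all probes were called against 17.

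Scnn1b minus Scnn1a turned to 0.02 within slides, 0.0513 under normexp and 0.0342 with the median pixel signal, and ran from −0.21 to 0.0589 with 1 array left out. Scnn1g minus Scnn1a was 0.42 under normexp (exact permutation p = 0.0280). Slc26a3 minus Slc9a3 was 0.15 under cyclic loess (exact permutation p = 0.129) and 0.18 to 0.25 with 1 array left out, Cftr minus Slc12a2 0.40 to 0.62 and Car4 minus Car1 −0.0362 to 0.24. The cause of these changes was not tested.

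Same-numbered rats correlated with r of −0.16 to 0.67 and only number 1 correlated best with its own. The numbers were therefore not treated as pairs, though this check cannot exclude a weak pairing. With the replicate block 0 of the 10 genes and 8 of all probes were called, and Slc26a3 minus Slc9a3 was 0.22 with a sign-flip p of 0.0625 (exact). Precision is limited by 7 arrays per diet.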
